A study of Mus musculus with 2 samples.

Results

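The cytosolic ribosomal protein genes were followed in long-read RNA libraries of the mouse adrenal gland. They were taken by name from both deposited transcript tables: annotated genes whose symbol starts with Rpl or Rps and a digit, with Rplp0, Rplp1, Rplp2 and Rpsa, leaving out Rps6k kinases and names with -ps. The rule gave 89 of the 18179 annotated genes with at least 1 read. Of these, 77 encode the canonical proteins, 46 of the large and 31 of the small subunit, 11 are paralogous or restricted forms, and Rps19bp1, which the name rule also takes, encodes a binding partner of Rps19 and not a ribosomal protein. Rps19bp1 stands in every total over the 89 genes.

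The cytosolic ribosome is built from a small subunit, which reads the mRNA, and a large subunit, which joins amino acids, and each canonical protein is needed in about equal number per ribosome apart from the stalk proteins. In mice most of these proteins come from a single spliced gene, while the genome also holds many intronless copies of their mRNAs, called processed pseudogenes. Many of the mRNAs start with a run of pyrimidines, the terminal oligopyrimidine motif, through which their translation is controlled.

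The study comprised 2 libraries in 1 group: adrenal glands of female B6CASTF1/J mice, a first-generation cross of C57BL/6J and CAST/EiJ, at an age of 10 days, with no treatment or altered allele named. Total RNA was read as whole cDNA molecules, and a table per library gives the number of reads on each transcript model. The library text gives both libraries the same animal number while the biosample texts give different numbers, so whether 1 or 2 animals were sampled is not settled by the labels. A single group gives no contrast between conditions, and every test below compares the 2 libraries with each other and covers counting error only. In whole tissue, fewer cells of a type and less RNA per cell cannot be told apart.

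Without the ERCC spike-ins the libraries held 593058 reads (replicate 1) and 772037 reads (replicate 2). One read was worth 1.69 and 1.30 CPM (reads per 1e+06 reads), and 3 reads, the limit that a count of 0 allows, 5.06 and 3.89 CPM. Each read was taken as 1 molecule, so CPM was not divided by gene length. Whether short and long molecules were recovered alike was not tested. The adrenal cortex list of 6 genes summed to 16863 and 20737 CPM and the chromaffin list of 5 genes to 4885 and 5414 CPM, with every gene of both lists detected. Genes of neighbouring tissues differed between the libraries: 6 liver genes summed to 7799 and 1251 CPM, 12 striated muscle genes to 13481 and 4954 CPM, 5 brown fat genes to 9186 and 13856 CPM, and 6 kidney genes to 0 and 630 CPM. Their part in the ribosomal protein results was not tested.

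Rps24 is a small subunit protein whose mRNA is known for tissue-dependent splicing of very short exons near its 3′ end. In the deposited models, about as many of its reads as not carried an exon form that the annotation lacks. The sequences below are those between its shared coding exon and its last exon on chromosome 14 (plus strand, GRCm38), read from the GENCODE M21 transcripts, and are shown because the choice among them sets where the protein ends. Capitals mark the first stop codon in frame with the shared exon, which ends at a codon boundary.
18-base exon, chr14:24494052-24494069: aaaTGAaatacctagcag
36-base form, chr14:24494052-24494087: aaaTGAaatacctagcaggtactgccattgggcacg
20-base exon, chr14:24495430-24495449: TGAgtggagattggatacag
Start of the last exon, chr14:24495775-24495798: ccaaaggagTAGatctgcggtgac

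In the deposited models the 36-base form is the 18-base exon carried on to a later end, and the genome has gt directly after both. The alignments of the reads were not examined. Whether reads with the 18-base and 20-base exons joined were placed on the 36-base form was not tested. With no exon between, 9 bases of the last exon are read before the stop; after the 18-base exon and the 36-base form it is 3 bases, and after the 20-base exon the stop follows at once. The annotated coding parts differ accordingly, with 399 bases without the stop codon in Rps24-210 (no exon between), 393 in the annotated form with the 18-base and 20-base exons and 390 in Rps24-202 (20-base exon).

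Rps24 had 74 reads in replicate 1 and 91 in replicate 2, of which 65 and 80 spanned the shared and the last exon. The 36-base form was in 33 of these reads in replicate 1 (50.8%, 95% Clopper-Pearson interval 38.1 to 63.4%) and in 39 in replicate 2 (48.8%, 37.4 to 60.2%). No exon lay between in 31 reads (47.7%, 35.1 to 60.5%) and 35 reads (43.8%, 32.7 to 55.3%). The form with an inserted exon and the form without one differed by less than these intervals in either library. The 18-base exon alone was in 1 read (1.54%) and 6 reads (7.50%), with overlapping intervals. The separate 20-base exon was in 0 reads of both libraries. This allows up to 4.62% and 3.75% by the limit of 3 reads and up to 5.52% and 4.51% by the Clopper-Pearson interval. Both limits cover counting error and not how reads were placed on exons.

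Together the inserted forms made up 54.3% ± 2.79 (SD, n = 2) of the spanning reads. This share rests wholly on unannotated models: on annotated models alone, 22 of 22 and 18 of 18 spanning reads skipped to the last exon. The leading single model of Rps24, with 6 exons and the 36-base form, held 17 reads (22.97%) and 31 reads (34.1%), and Rps24-210 held 22 (29.7%) and 18 (19.8%). The third, lacking the first exon and carrying the 36-base form, held 12 and 7 reads. Another 7 reads in each library kept intron sequence after the shared exon.

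**Figure D1:**
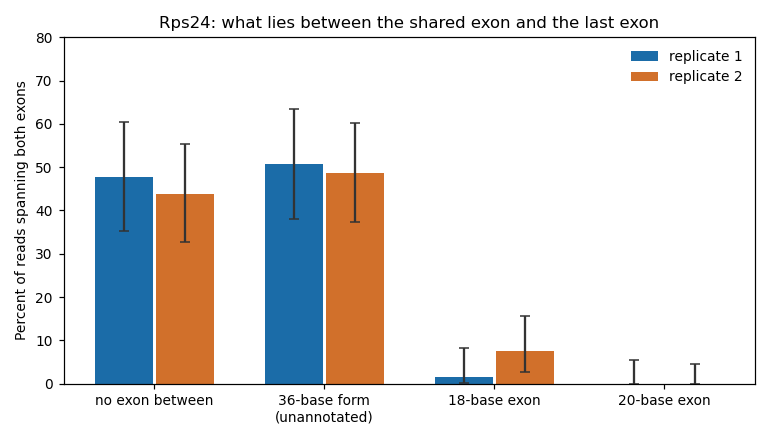
Percent of Rps24 reads spanning the shared and the last exon (vertical axis) by what lies between them (horizontal axis), in each library, with 95% Clopper-Pearson intervals as bars. The form without an exon between and the 36-base form stand at 43.8 to 50.8% in both libraries, and the 20-base exon at 0.

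All 89 genes together held 16933 reads in replicate 1 and 29061 in replicate 2. This was 2.86% and 3.76% of all reads, or 3.31% ± 0.643 (SD, n = 2). The 46 large subunit genes summed to 18103 and 23685 CPM and the 31 small subunit genes to 9097 and 12213 CPM. Per gene the canonical members of both subunits lay at similar levels, with medians of 363 CPM (large) and 381 CPM (small) over the mean of both libraries. Of the 77 canonical genes, 53 lay within 2-fold of their common median of 381 CPM, 18 lay below 50% of it and 6 lay above 2 times it. Level showed no relation to the length of the main deposited model across the 69 canonical genes with 50 reads in each library (Pearson r = 0.0253, Spearman rho = 0.0748, given as a description across genes). This length is not always that of the mRNA: it was 230 bases for Rpl39, a single-exon model, and 5179 for Rps15a. A relation of level to mRNA length was therefore not tested.

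**Figure D2:**
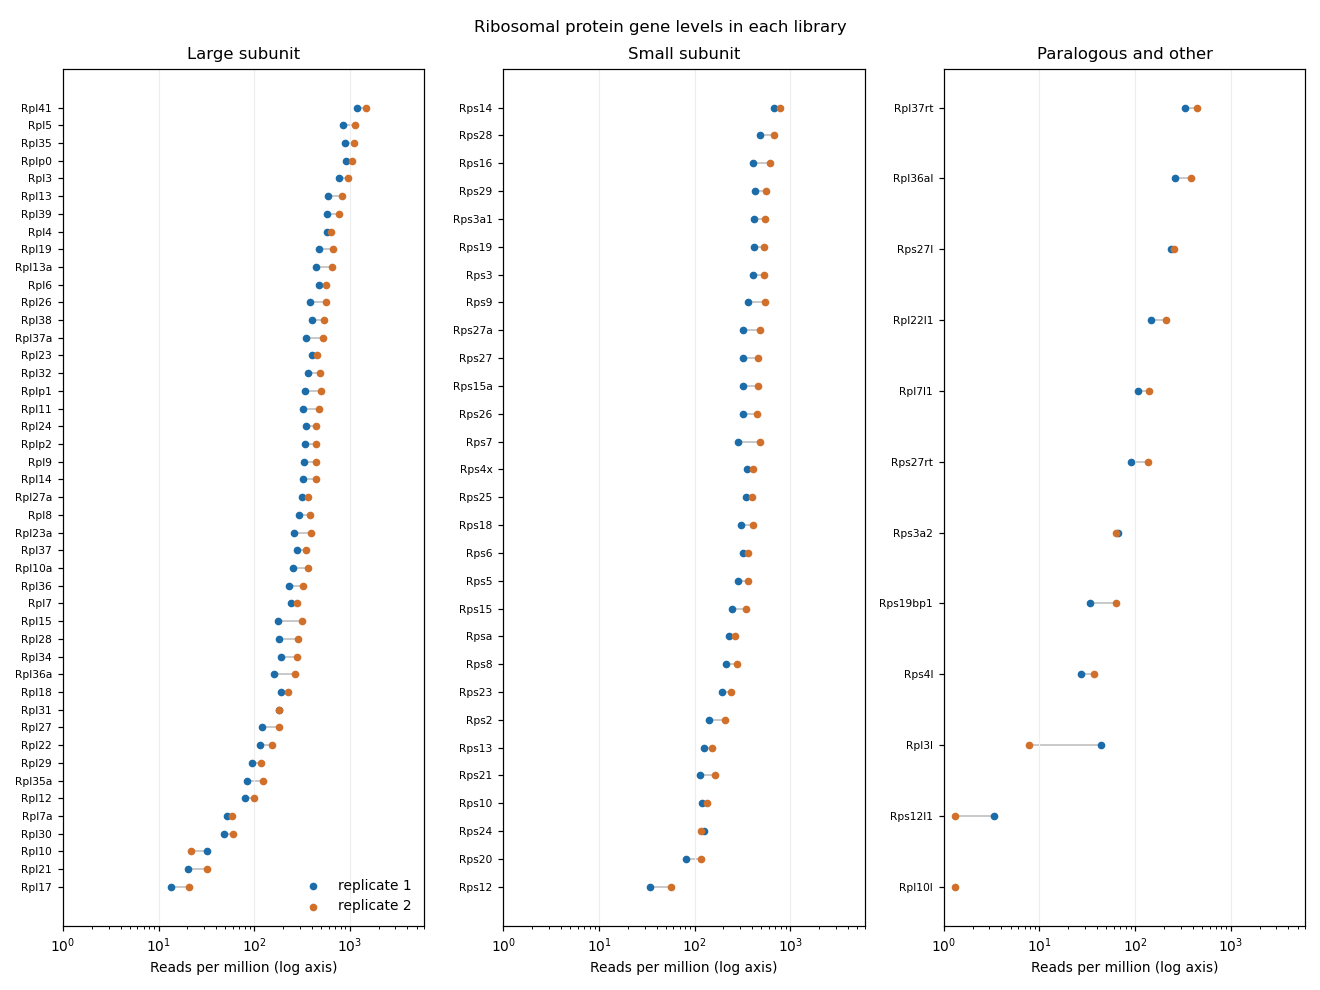
CPM of each member (horizontal log axis) in replicate 1 and replicate 2, for the large subunit, the small subunit and the other members, ordered by mean level. Most canonical genes lie near 381 CPM, with Rpl41 at 1194 and 1464 CPM and Rpl17, Rpl21 and Rpl10 at the foot of the large subunit panel; 3 members are not shown, and Rpl10l in replicate 1, at 0, is not drawn.

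Among the members with many reads, Rpl41, which encodes a very short basic peptide of the large subunit, had 1194 and 1464 CPM. Rpl5, which carries the 5S RNA to the large subunit, had 855 and 1142 CPM, and Rpl35, at the exit of the peptide tunnel, 900 and 1095 CPM. Rplp0, the base of the stalk that recruits elongation factors, had 922 and 1041 CPM, and Rpl3, near the peptidyl transferase centre, 779 and 959 CPM. The order of Rpl5, Rpl35 and Rplp0 changed between the libraries, while Rpl3 was the lowest of these 4 in both. Next came Rps14 (668 and 785 CPM), Rpl13 (594 and 838 CPM), Rpl39 (572 and 771 CPM) and Rpl4 (575 and 641 CPM), whose order differed between the libraries.

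The dimeric stalk partners Rplp1 and Rplp2 lay lower than Rplp0, at 337 and 497 CPM and at 341 and 446 CPM. Each stalk holds more copies of these partners than of Rplp0, whereas in both libraries Rplp0 had more reads than either. Rpsa, a small subunit protein also known as the laminin receptor precursor, had 137 reads in replicate 1 and 203 in replicate 2, a mean of 247 CPM ± 22.6 (SD, n = 2).

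At the low end, canonical genes held few reads: Rpl17 had 8 and 16 reads, Rpl21 12 and 25, Rpl10 19 and 17, Rps12 20 and 44, and Rpl30 29 and 46. Rpl10, which completes the large subunit late in its assembly, was at 32.0 and 22.02 CPM. These are 5 of the 10 lowest members; the other five were Rps19bp1 (20 and 49 reads) and the restricted forms Rpl10l, Rps12l1, Rpl3l and Rps4l. With so few reads their order was not resolved.

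Close paralogs and restricted forms ranged from the canonical median down to single reads. Rpl37rt, an intronless copy of Rpl37 annotated as a transcribed processed pseudogene, had 336 and 446 CPM, above Rpl37 itself at 278 and 345 CPM. Rpl36al, a copy of Rpl36a, had 260 and 380 CPM beside 160 and 267 CPM of Rpl36a, and was likewise higher in both libraries. Rps27l, a Rps27 paralog known as a p53 target, had 239 and 254 CPM beside 322 and 465 CPM of Rps27, and the intronless Rps27rt had 91.1 and 136 CPM. Rpl22l1, the paralog of Rpl22, had 145 and 212 CPM beside 115 and 153 CPM. Rpl7l1, a paralog of Rpl7, had 108 and 141 CPM beside 245 and 281 CPM. Rps3a2 (39 and 49 reads) and Rps4l (16 and 29 reads) were low, Rps12l1 had 2 and 1 reads, and Rpl10l, the testis form of Rpl10, had 0 and 1 read. Reads on the near-identical copies Rpl37rt, Rpl36al, Rps27rt, Rps3a2, Rps4l and Rps12l1 are uncertain, since counting could divide them between copy and parent.

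For Rpl5 and Rpl39 most reads did not cover the coding part. Rpl5 reads fell mostly on Rpl5-204, which the annotation calls a retained intron: the model starts within an intron and holds the last 3 exons of the gene. All introns of Rpl5-204 are also introns of the coding form Rpl5-201, and the ends of single reads are not given. Whether these reads hold intron sequence is therefore not shown. Rpl5-204 had 429 reads (84.6%) and 789 reads (89.5%), while the 8-exon Rpl5-201 had 62 (12.2%) and 72 (8.16%). Rpl39, a very small protein of the peptide tunnel, had 224 (66.1%) and 370 (62.2%) of its reads on single-exon models at its 3′ end. Its coding form Rpl39-201 had 113 (33.3%) and 223 (37.5%).

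Reads were then counted only on models that hold a whole annotated coding part. The median share of such reads was 89.9% in replicate 1 and 93.4% in replicate 2 over the 74 members with an annotated coding part and 50 reads in each library. It was below 50% in both libraries for Rpl5 and Rpl39. On this count Rpl41 led with 1291 CPM ± 197 (SD, n = 2), followed by Rpl35 (967 ± 125), Rplp0 (915 ± 87.3), Rpl3 (821 ± 145) and Rps14 (699 ± 104). Rpl5 lay at 98.9 CPM.

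**Figure D3:**
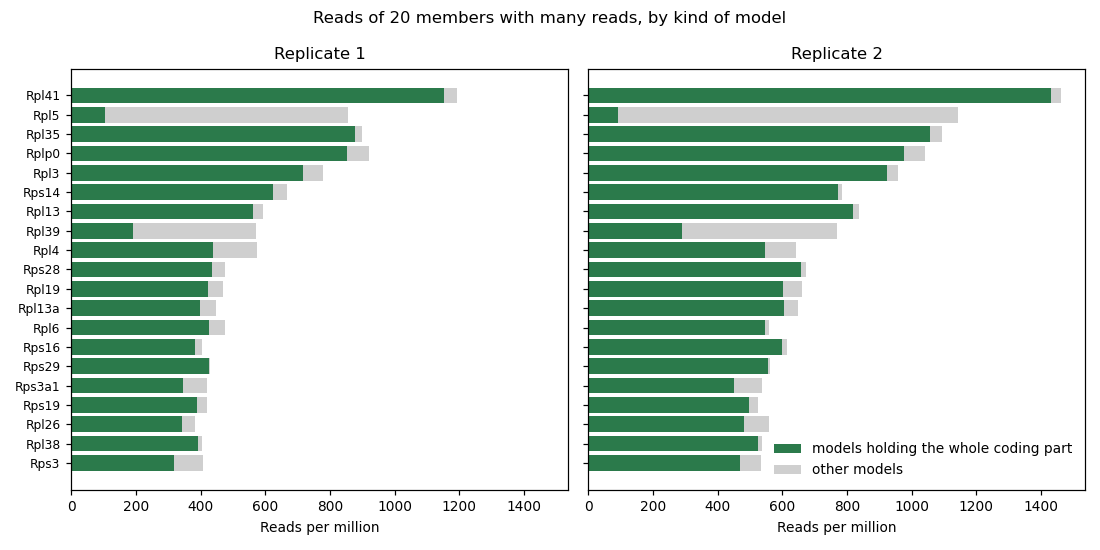
CPM (horizontal axis) of 20 members with many reads, in each library, divided into models that hold the whole annotated coding part and other models. Rpl5 and Rpl39 are mostly other models, while the bars of Rpl41, Rpl35 and Rplp0 are nearly all coding models.

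By model class, a larger share of reads lay on annotated models for the members than for genes at large. Annotated models held 81.2% and 84.3% of the members' reads, against 71.0% and 75.6% over all annotated genes. Incomplete splice match models, whose junctions are a stretch of another model, held 16.9% and 13.8%, and 83.6% and 85.2% of these shared the 3′ end. Over all annotated genes this class was smaller, at 13.5% and 11.8%, of which 72.0% and 66.7% shared the 3′ end. Single-exon models held 5.29% and 4.48% of the members' reads and 14.5% and 11.99% of all reads on annotated genes. The mitochondrial ribosomal protein genes, 81 genes encoding the ribosome of another compartment, had 79.8% and 82.2% of their reads on annotated models.

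The members differed widely in this share. Rps27rt and Rpl37rt, which have 1 exon, were at 100%, Rps27 at 100% and 99.4%, Rpl23a at 99.4% and 99.3%, and Rpl35 at 99.4% and 98.9%. Low shares were found for Rps24 (32.4% and 24.2%), Rpl39 (33.3% and 37.6%), Rpl7l1 (45.3% and 43.1%) and Rps21 (43.3% and 65.1%). Single-exon reads were at 0 in both libraries for 10 of 75 members. By the mean of both libraries, and apart from the intronless forms and Rpl39, they were most frequent in Rpl23 (11.9% and 13.7%) and Rps3a1 (10.8% and 12.5%).

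Of the 75 members with 50 reads in each library, 34 had a further spliced model beside the main transcript. Each such model held at least 5% of the gene's reads in each library. There were 44 of them: 25 were annotated, 18 were incomplete matches that shared the 3′ end, and 1 was unannotated with a new splice site. Most of the incomplete matches have only introns of the main transcript, as have some annotated models such as Rpl11-204 and Rpl26-204. Shortened reads of the main transcript were not told apart from these. The same count was not made over all genes. Of the annotated ones, 16 in 14 members had the same coding part as the main transcript. Rpl38-201, for instance, held 80 reads (33.3%) and 136 reads (32.8%), and Rps28-201 held 75 (26.5%) and 146 (28.0%). Rpl31 divided its reads mainly among 3 annotated models, with the main Rpl31-203 at 31.5% and 30.9%, Rpl31-201 at 25% and 31.7%, and Rpl31-202 at 23.1% and 25.2%. Rpl31-201 has another first exon, while Rpl31-203 starts as Rpl31-202 does and keeps its first intron. The other models with the main coding part were of Rpl15, Rpl27, Rpl28, Rpl29, Rpl34, Rpl35a, Rpl8, Rps14, Rps19, Rps2 and Rps27a, with Rpl28-202 at 19.4% and 19.9%.

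In 2 members the alternative and the main transcript both had a coding part and these differed. Rpl18-202 (8.85% and 6.32%) has another first exon and a coding part of 408 bases in place of 564. Rpl22l1-201 (25 reads, 29.1%, and 51 reads, 31.1%) uses an acceptor 3 bases before that of the main form Rpl22l1-206, and its coding part has 366 bases in place of 363. The exon joins of these forms are given below with those of Rpl38, since both are choices between neighbouring splice sites; capitals mark the bases that only 1 form holds. For Rpl22l1 (chromosome 3, plus strand) the first 9 bases are the coding end of exon 1 and the rest is exon 2, and for Rpl38 (chromosome 11, plus strand) the sequences end exon 1, before the start codon.
Rpl22l1-201: atggcgccgCAGaaagacaagaagcctaag
Rpl22l1-206: atggcgccgaaagacaagaagcctaag
Rpl38-201: ggttctcatcgctGTGAGTGTGCTGGGCAG
Rpl38-204: ggttctcatcgct
The 3 added bases of Rpl22l1-201 are a whole codon, for glutamine, and keep the frame. The donor of exon 1 lies 17 bases further on in Rpl38-201 than in Rpl38-204, and the 2 forms of Rps28 differ by 4 bases at the end of exon 3, outside the coding part.

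Models annotated without a coding part also passed 5%. Rpl26-204, annotated as a retained intron, held 8.37% and 11.8% of Rpl26. Rpl11-204, a processed transcript, held 11.1% and 6.25%. For Rpl22, which binds RNA outside the ribosome too, the main model itself was a processed transcript, with 44 (64.7%) and 93 (78.8%) of its reads. Its exons hold the whole coding part annotated for another Rpl22 form, and these reads were counted as coding reads above.

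Incomplete models without an annotated alternative passed 5% in Rpl19, Rpl23, Rpl36, Rpl6, Rpl7, Rpl7l1, Rps15, Rps21, Rps25, Rpsa and Rpl22. Those of Rps25, at 27.0% and 18.7%, Rpl7, at 23.4% and 21.2%, and Rpl23, at 22.5% and 12%, were the largest of the 3-exon ones. Seen in both libraries were 41 unannotated spliced models with a new splice site or a new combination of annotated sites. That of Rpl7l1 had the most reads, followed by the Rps24 form described above. The Rpl7l1 model has 7 exons and held 17 (26.6%) and 32 (29.4%) of the gene's reads. Next were models of Rps19 (12 and 18 reads), Rplp2 (4 and 13 reads) and Rps7 (6 and 6 reads), each under 5% of its gene.

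Some members had more reads on their pseudogenes than on the gene. By sequence, 204 annotated pseudogenes or copies with reads matched 72 of the members at 90% identity or more over at least 80% of the length. They held 3755 and 6017 reads, which is 22.2 and 20.7 per 100 reads of the members, and 99.7% of these reads were single-exon in both libraries. By name alone, the 85 genes with -ps in their symbol held 1870 and 2997 reads. Since counting can divide reads between a gene and a near-identical copy, the levels of the members with such copies are uncertain.

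In 12 members the pseudogenes held more reads than the gene in both libraries: Rps19, Rps6, Rpl31, Rps2, Rpl27, Rps13, Rpl35a, Rpl7a, Rpl30, Rpl10, Rpl21 and Rpl17. Rpl21 had 12 and 25 reads on the gene and 208 and 396 on 11 pseudogenes. Rpl17 had 8 and 16 reads on the gene and 107 and 160 on 5 pseudogenes. Rpl10 had 19 and 17 reads on the gene and 101 and 180 on 4 copies, most of them on Rpl10-ps3 (98 and 176 reads), which the annotation lists as protein coding. Rpl35a had 50 and 95 reads beside 214 and 390 on 7 pseudogenes.

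With the pseudogene reads added, fewer canonical genes lay far below their median. Their median became 412 CPM, 60 of 77 lay within 2-fold of it in place of 53 around the former median, and 9 in place of 18 lay below 50% of it. Rps29 (940 CPM) and Rps19 (986 CPM) then lay above 2 times the median, which neither did before. Rpl21 then had 458 CPM ± 123 (SD, n = 2) in place of 26.3 ± 8.6. High members gained too: Gm15500 on chromosome 7 (114705217 to 114706163), identical to Rpl5 over the aligned bases, held 359 and 621 reads, and Rpl3-ps1 held 254 and 349. Gm14303, identical to Rps29, held 220 and 402.

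**Figure D4:**
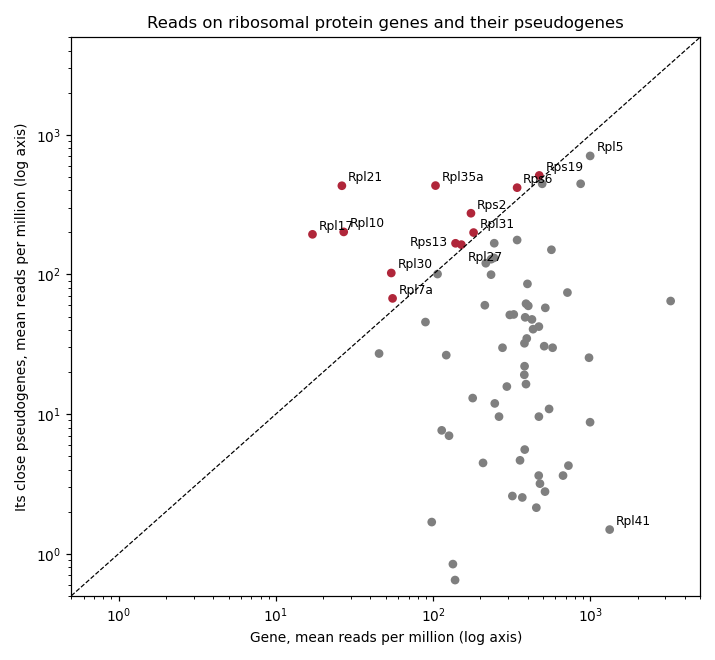
Mean CPM of each member (horizontal log axis) and of the annotated pseudogenes that match it by sequence (vertical log axis), for members with at least 1 such read. The 12 members in red lie above the dashed line of equality in both libraries, and Rpl21, Rpl17 and Rpl10 lie farthest above it.

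Rps19, a small subunit protein, and Rps19-ps6 show how alike such pairs are. The pseudogene, on chromosome 12 (110898114 to 110898551), had 251 and 458 reads beside 250 and 406 of Rps19. Over the 438 coding bases with the stop codon they differ at 5 positions, with 98.9% identity: C6T, T273C, G369A, G372A and C390T, counted from 1 at the A of the start codon, with the base of Rps19 first. The stretch from base 344 to 394, which holds 3 of the differences, in capitals, reads as follows in the GENCODE M21 transcripts.
Rps19: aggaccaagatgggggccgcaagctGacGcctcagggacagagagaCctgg
Rps19-ps6: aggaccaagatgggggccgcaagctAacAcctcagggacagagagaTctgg

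Start sites were taken from RefSeq (GRCm38.p6), which matched 66 of the 89 members with 78 start sites. A run of at least 6 pyrimidines that begins with C within 5 bases of the start, on the gene's strand, was found in 25 of 57 canonical genes. It was at 38.8% of their start sites, against 10.2% of all 32851 start sites in the table. CTTTC, from 10 bases before to 15 bases after the start on the gene's strand and often part of such a run, was at 20.9% against 3.1%. Of 8 matched paralogous forms, 2 had a run. Runs farther from the annotated start, such as the one before that of Rpl4, were not counted. These counts therefore do not give the number of genes whose mRNA starts with pyrimidines. The examples below give 20 bases before the start and the first 10 bases of the mRNA in capitals, because canonical genes and a paralog can be compared there.
Rpl35, chr2:39005122-39005151, minus strand: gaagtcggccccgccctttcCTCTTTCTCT
Rplp2, chr7:141447631-141447660, plus strand: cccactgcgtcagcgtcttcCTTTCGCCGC
Rps27, chr3:90213639-90213668, minus strand: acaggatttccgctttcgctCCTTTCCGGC
Rps27l, chr9:66946066-66946095, plus strand: cctctccactcctccccgccGCCTCTATCC
A run was found for Rpl35, Rplp2 and Rps27 and not for Rps27l.

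Between the libraries nearly all members moved the same way. Of the 87 members with 10 or more reads summed, 82 had a higher CPM in replicate 2 (94.3%), against 47.5% of the 10567 genes tested. Their median log2 ratio of replicate 2 over replicate 1 was 0.41, against -0.04 for all genes tested and 0.10 for the 2620 genes with 100 or more reads. The 77 members with as many reads spanned -0.08 to 0.84, with quartiles of 0.30 and 0.54. The large and the small subunit genes had a median of 0.41 each, and 44 of 46 large and 30 of 31 small subunit genes were higher in replicate 2. The reads of these genes share 2 libraries and their totals, so the members are not independent of each other. The liver and striated muscle sums given above were higher in replicate 1; without these lists in the totals the median was 0.39. With the adrenal cortex list as totals the median was 0.11 and 63 of 87 members were higher in replicate 2, while the median of all genes tested was -0.34.

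For each gene the split of its reads was set against that of the totals by an exact binomial test (two-sided, Benjamini-Hochberg over all genes), and a gene was called below an adjusted p of 0.05 if it also differed 2-fold. One of 87 members was called, with 3.46% of all genes called. With the adjusted p alone as the criterion, replicate 2 was higher for 43 (3.61% of all genes) and replicate 1 for 1 (3.18% of all genes). None of the 43 reached 2-fold. Among members with 100 reads, large upward ratios were those of Rpl15 (175 and 315 CPM, log2 0.84), Rps7 (285 and 478 CPM, 0.74), Rpl36a (160 and 267 CPM, 0.73) and Rpl28 (182 and 286 CPM, 0.65). At the other end stood Rps24 (125 and 118 CPM, log2 -0.08), Rpl31 (182 and 180 CPM, -0.02), Rps27l (0.08), Rps6 (0.16) and Rpl4 (0.16), none of which passed the adjusted threshold.

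The called member was Rpl3l, the paralog that takes the place of Rpl3 in striated muscle. It had 26 reads (43.8 CPM) in replicate 1 and 6 reads (7.77 CPM) in replicate 2, 5.31-fold higher in replicate 1 (95% interval 2.27 to 16.8; log2 -2.41, adjusted p = 8.3e-04 by the exact binomial test). The other members lower in replicate 2 were Rpl10 (log2 -0.54), Rps24 (-0.08), Rps3a2 (-0.05) and Rpl31 (-0.02), none of them called. The call was lost on annotated models (16 and 5 reads, log2 -1.97, adjusted p = 0.063 by the exact binomial test) and with edgeR's negative binomial exact test (log2 -2.43, adjusted p = 0.19). The striated muscle list moved with it: 8 of its 12 genes were called higher in replicate 1 (2.58% of all genes) and 1, Myh4, higher in replicate 2 (0.88% of all genes), and Myh7 had 76 and 0 reads. Their part in the Rpl3l result was not tested.

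**Figure D5:**
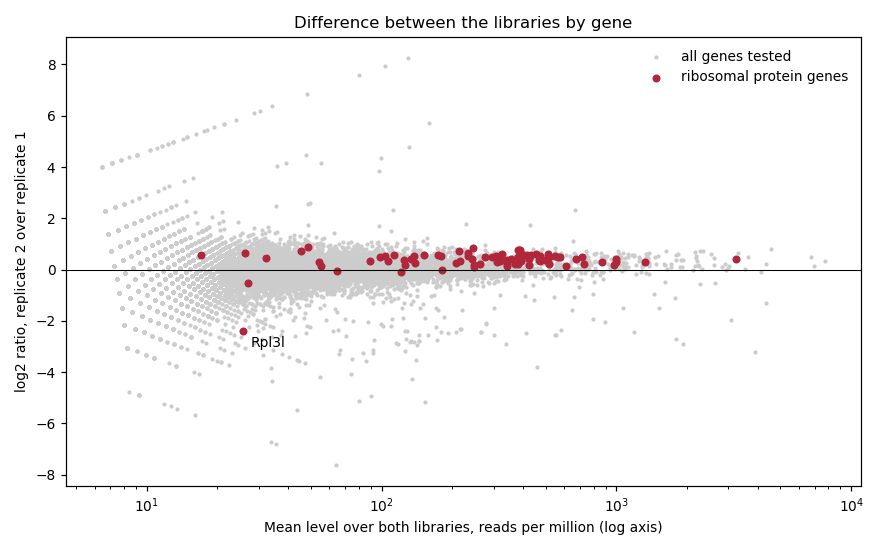
Log2 ratio of replicate 2 over replicate 1 (vertical axis) against mean CPM (horizontal log axis) for the 10567 genes tested in grey and the 87 tested members in red. The members form a narrow band around 0.41, and Rpl3l lies apart at -2.41.

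Other genes of the translation machinery were set beside them. Fau, which supplies a small subunit protein, had 216 and 316 CPM (log2 0.55), and Rack1, a scaffold protein on the small subunit, had 142 and 174 CPM (log2 0.29). Both were higher in replicate 2 and neither was called. The mitochondrial ribosomal protein genes had a median of 0.36, with 64 of 79 tested higher in replicate 2. Other transcripts with an oligopyrimidine start, such as those of elongation factors and Gas5, had a median of 0.03, with 11 of 18 higher. Npm1 stands both in this list and in that of ribosome assembly genes. Ribosome assembly genes had a median of 0.07, with 14 of 24 higher and 1 called, higher in replicate 1 (2.58% of all genes). The differences between these lists were not tested.

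The share of the main transcript was compared between the libraries with Fisher's exact test over 2162 genes with 50 reads in each library. A difference of 10 percentage points with an adjusted p under 0.05 was found for 2 of 75 members, beside 1.8% of all genes tested. Rpl32-201 held 172 of 215 reads (80%) in replicate 1 and 342 of 377 (90.7%) in replicate 2, a difference of 10.7 points (adjusted p = 0.021, Fisher's exact test). Rpl8-201 held 106 of 176 reads (60.2%) and 222 of 297 (74.7%), a difference of 14.5 points (adjusted p = 0.045, Fisher's exact test). Both encode large subunit proteins, and in both the main transcript was the annotated coding form. Both calls were lost when annotated models alone were counted, with differences of 4.31 and 8.51 points. Rpl4 (76.2% and 85.3%) passed the adjusted p but not the 10 points, and 4 members passed the adjusted p in all, beside 3.65% of all genes tested. In 58 of the 75 members the main share was higher in replicate 2, and the medians were 84.5% and 88.1%. Over all genes tested the medians were 77.4% and 81.3%, also higher in replicate 2. How many of all genes had a higher main share in replicate 2 was not counted.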

How the data were processed

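Per the labels, total RNA of adrenal glands was sequenced as long reads in 2 libraries, with Ambion spike-ins, and the data were processed against mm10 with an ENCODE long-read pipeline for mouse; the sources used here name no parameters. The deposited tables give the authors' whole-number read counts per transcript model, with the model's class, exon number and length, and the deposited annotations give exon positions. Counts were summed per gene, spike-ins were left out (13619 and 16617 reads), and CPM was computed from the remaining totals. Models were matched between libraries by intron chain; the deposited ends are those of the model, not of each read. Names and sequences come from GENCODE M21 and RefSeq.

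The members and lists were chosen with earlier results of these data known. Genes named are the 10 highest and 10 lowest, the stalk genes and Rpsa, all paralogous forms, called genes and the 5 largest ratios each way. Also named are members with a further spliced model of 5%, the leading unannotated models and the extremes of the model classes. A pseudocount of 0.5 reads was used for log2 ratios. A coding read is one on a model whose introns and ends hold a whole annotated coding part with a consensus (CCDS) entry. Pseudogenes were matched with blastn 2.17.0. Tests used scipy 1.17.1 in Python 3.11.15; the gene test and the transcript test were checked on simulated data. Alternatives used edgeR 4.0.16 and DESeq2 1.42.0 in R 4.3.3. Intervals cover counting error only. CAST/EiJ alleles were not separated. Some results are not reported here.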

Additional observations from a re-analysis of the deposited data

How the results depend on the processing

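With 1 group of 2 libraries, p-values measure counting error only, and a member below 3 reads cannot be told from 0. No paired analysis was possible because the labels give 1 group. Alternatives that count whole coding parts, add close pseudogenes or change the totals to the adrenal cortex list or to totals without the liver and muscle lists were chosen after seeing the data. The summed level of 33097 CPM was 25859 with whole coding parts only and 40160 with close pseudogenes, and 28552 to 37642 with either library alone. The median log2 ratio of 0.41 was 0.11 with adrenal cortex reads as totals, which moves the median of all genes by -0.30; 63 of 87 members were then higher in replicate 2. The count of 1 called member became 0 at a minimum of 50 reads, which leaves Rpl3l out. It was also 0 with edgeR's negative binomial exact test, whose dispersion treats the libraries as replicates. Without a fold minimum the count was 44, with 43 higher in replicate 2 (3.61% of all genes) and 1 higher in replicate 1 (3.18% of all genes). On annotated models alone the 1 called member was Rps21 (29 and 82 reads, log2 1.10, adjusted p = 0.0053 by the exact binomial test) in place of Rpl3l (adjusted p = 0.063); the cause was not tested. The adjusted p of Rpl3l ranged from 7.6e-05 to 0.19. Of the 2 called main transcripts, 1 remained at a minimum of 20 reads, 1 on spliced models and 0 on annotated models. With 5 points 4 members passed, beside 66 of all 2162 genes. With no minimum difference 4 members passed, beside 79 of all genes (3.65%). The inserted Rps24 share of 54.3% was 0 on annotated models, and 52.3 to 56.3% with either library alone. The annotated share of 82.7% was 92.9% as a median over members, and 81.2 to 84.3% with either library alone. Reads on -ps genes, 10.7 per 100 member reads, were 21.4 with pseudogenes matched by sequence, and 10.3 to 11.0 with either library alone. Leaving out a library leaves no test between libraries.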
